A study of Mus musculus with 6 samples.

Results

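The genes described here are 10 transcripts that the RAS-RAF-MEK-ERK pathway controls or that restrain it, Dusp4, Dusp5, Dusp6, Spry1, Spry2, Spry4, Spred1, Spred2, Etv5 and Phlda1. They were chosen by name, as a transcript readout of ERK activity, and every probe set that names 1 of them and no other gene was taken. This gave 27 of the 45037 probe sets on the array that are not controls, and 10 of the 18193 genes named by a single-symbol probe set. The arrays measured RNA from whole mouse liver (C57BL/6) 18 hours after partial hepatectomy, an operation that takes out 2/3 of the organ and starts its regrowth. Cre plus livers (3 arrays, A, B and C) came from Socs3 fl/fl mice with a Cre transgene driven by the albumin promoter, which is active in hepatocytes. Cre minus livers (3 arrays, A, B and C) came from Socs3 fl/fl littermates that carry no Cre, so both groups carry the floxed allele. The presence of Cre and the loss of Socs3 cannot be told apart in this design. Liver before surgery and sham-operated liver were not analysed here. The labels do not say that each array is a separate mouse, so p-values measure only the spread between these arrays, which may be partly technical. Values per array are given in the order A, B, C within each group.

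Growth factors such as EGF and HGF act on receptor tyrosine kinases, which load RAS with GTP and start the relay from RAF through MEK to the kinase ERK. Active ERK enters the nucleus and induces immediate early genes and ETS factors, and with them its own inhibitors. The DUSP phosphatases remove phosphate from ERK, the Sprouty proteins act between the receptor and RAF, and the SPRED proteins bring the RAS inactivator neurofibromin to the membrane. Because these inhibitors are made in response to ERK, their transcripts are commonly used as a readout of its output. After partial hepatectomy this pathway is known as one of the growth signals that bring hepatocytes back into the cell cycle. SOCS3 itself restrains signalling from IL-6 family receptors through JAK kinases and STAT3.

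The deposited values were on a log2 scale, from GCRMA, which subtracts a sequence-based background and puts all arrays on a common distribution. The array medians lay between 2.98 and 3.02, and between 34.5% and 34.8% of probe sets were over 4 on each array. A probe set was tested when its value was over 4 on at least 3 of the 6 arrays, which kept 15563. The brightest Socs3 probe set had 7.44, 6.69 and 7.47 in Cre plus livers, against 9.09, 9.30 and 9.24 in Cre minus livers, so the groups did not overlap in the direction the labels give. Cre plus B was closer to the Cre minus arrays than to its own group. Over the probe sets kept its correlation with them was 0.991 to 0.993, against 0.990 and 0.987 with the other Cre plus arrays, A and C. The correlation between A and C was 0.989. All 8 named hepatocyte markers were over the filter, with a mean of 12.6 to 12.9 in Cre plus and 12.8 in Cre minus, though Ass1 read little above it. In Cre plus 6 of the 8 were lower and 2 higher in value. Cps1, named after its values were seen, had -0.50 ± 0.18 (SE) with an unadjusted p of 0.0346 by limma. The 9 named T, NK and B lymphocyte markers all missed the filter.

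Of the 10 genes, 4 had a probe set over the filter, Dusp6, Phlda1, Spred1 and Spred2, with 5 probe sets among them. Dusp6 was lower in Cre plus than in Cre minus without passing the test, Phlda1 was well above background with close group means, and Spred1 and Spred2 lay little above the filter. The other 6 genes, Dusp4, Dusp5, Spry1, Spry2, Spry4 and Etv5, had no probe set over it. By limma's test with Benjamini-Hochberg adjustment, 0 of the 5 probe sets passed an adjusted p under 0.05, where 0.0129% of all probe sets kept did (2 of 15563, both higher). Before adjustment, 1 of the 5 was lower with a p under 0.05, where 7.18% of all probe sets kept were, and 0 were higher, where 6.12% were. The median log2 fold change of the 5 was 0.10, with 4 higher and 1 lower in value, and that of all probe sets kept was -0.00432.

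**Figure D1:**
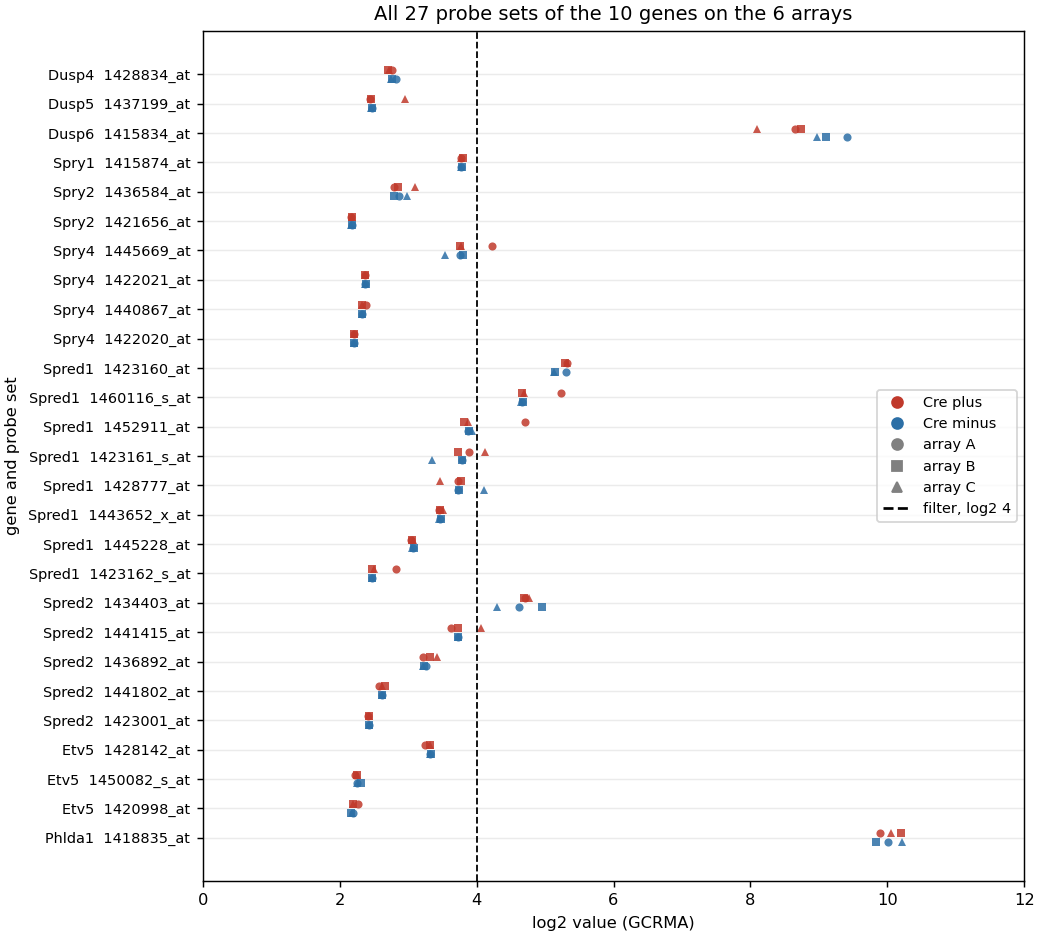
Log2 value (horizontal axis) of each of the 27 probe sets (rows) on each of the 6 arrays, with Cre plus in red above Cre minus in blue and symbols for arrays A, B and C. The dashed line is the filter at 4, and the values of Dusp6 and Phlda1 lie far to its right while 22 probe sets do not reach it on 3 arrays.

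Dusp6 encodes a cytoplasmic phosphatase that is specific for ERK and is induced by it. The gene lies at chr10:99263231-99267489 (GRCm38.p6). The bases before its start are shown with those of Spred1 and Spred2, since these are the 3 genes over the filter that the RefSeq promoter table holds. The table (GRCm38.p6) matched 7 of the 10 genes. Each sequence is the 250 bases before the start that the table gives, all on the plus strand, at chr10:99262981-99263230 for Dusp6, chr2:117120821-117121070 for Spred1 and chr11:19924192-19924441 for Spred2. Capitals mark the letters CGGAAG, a strict form of the motif of the ETS factors that ERK activates, read on either strand. Looser forms of the ETS motif were not searched and are not marked.
Dusp6: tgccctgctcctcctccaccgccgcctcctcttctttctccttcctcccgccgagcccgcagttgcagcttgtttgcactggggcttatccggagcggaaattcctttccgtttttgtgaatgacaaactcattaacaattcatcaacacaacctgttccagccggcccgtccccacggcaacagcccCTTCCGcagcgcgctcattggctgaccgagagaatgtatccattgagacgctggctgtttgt
Spred1: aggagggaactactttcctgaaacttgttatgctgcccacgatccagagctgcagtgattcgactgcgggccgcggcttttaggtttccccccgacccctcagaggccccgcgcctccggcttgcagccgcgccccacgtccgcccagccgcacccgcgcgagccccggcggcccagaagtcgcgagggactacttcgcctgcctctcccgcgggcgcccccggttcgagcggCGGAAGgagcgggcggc
Spred2: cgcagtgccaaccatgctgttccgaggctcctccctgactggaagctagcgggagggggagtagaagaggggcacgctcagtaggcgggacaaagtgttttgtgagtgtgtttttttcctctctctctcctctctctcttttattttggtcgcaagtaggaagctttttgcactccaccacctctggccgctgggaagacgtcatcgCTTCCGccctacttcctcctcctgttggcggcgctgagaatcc
Each of the 3 windows held CGGAAG once, 62 to 57 bases before the start in Dusp6, 17 to 12 in Spred1 and 43 to 38 in Spred2. The Spred1 window ends on the first base of the gene as given below. Its distances therefore count from the start in the promoter table. Of all 32851 windows of this length in the table, 13.6% held it. The AP-1 motif TGANTCA and the STAT motif TTCNNNGAA were searched on both strands as well and were in none of the 3 windows, and 6.75% and 7.02% of all windows held them in that order. The windows of Dusp5, Spry1, Spry2 and Etv5 (2 starts) held none of the 3 motifs. A match is a stretch of letters and not a measured binding site.

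Dusp6 had log2 values of 8.66, 8.74 and 8.10 in Cre plus livers, against 9.42, 9.11 and 8.97 in Cre minus livers. Every Cre plus liver lay below every Cre minus liver, with Cre plus C lowest. Among all probe sets kept, 11.0% were separated in this direction and 8.78% in the other, so separation alone is common here. The means were 8.50 ± 0.35 in Cre plus and 9.16 ± 0.23 in Cre minus (SD, n = 3 each). The log2 fold change was -0.67 ± 0.21 (SE). On the linear scale the signal in Cre plus livers was 63.0% of that in Cre minus livers (95% interval 44.2% to 89.7%). Limma gave an unadjusted p of 0.0189 and an adjusted p of 0.295, and the difference did not pass the test. The exact permutation test gave p = 0.1, two-sided, the smallest that 3 arrays against 3 allow. Of the probe sets kept, 1.04% had a log2 fold change as low as this or lower (162 of 15563), and ranked by p Dusp6 was number 995.

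Leaving out single arrays moved the Dusp6 value without turning it. It was -0.79 when Cre plus B was left out, -0.47 when Cre plus C was, and -0.54 when Cre minus A was, the last with an unadjusted limma p of 0.0611. The adjusted p from limma lay between 0.181 and 0.750 over the 17 alternatives.

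**Figure D2:**
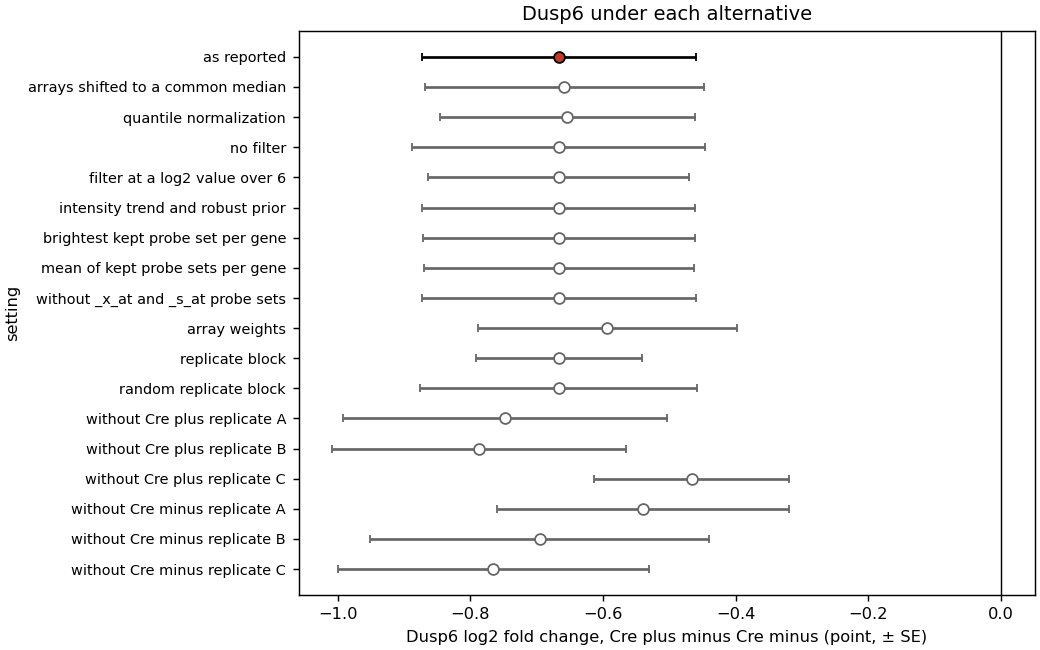
Dusp6 log2 fold change, Cre plus minus Cre minus (horizontal axis, point ± SE), as reported and under each of 17 alternatives (rows). All 18 points lie below 0, from -0.79 with Cre plus B left out to -0.47 with Cre plus C left out.

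Of 12 Kupffer cell and macrophage markers over the filter, 11 were lower in value and 1 was higher in Cre plus, and their mean log2 value was 7.59 to 7.79 in Cre plus and 7.98 to 8.10 in Cre minus. Of 11 sinusoidal endothelial markers, 10 were lower in value and 1 higher, with a mean of 7.15 to 7.28 in Cre plus and 7.34 to 7.43 in Cre minus. Stellate cell markers were 5 higher and 5 lower in value, at 6.73 to 6.99 in Cre plus and 6.74 to 6.87 in Cre minus. The markers Timd4, Cdh5 and Col1a2 of these 3 lists missed the filter. Of 8 named neutrophil markers, S100a8 and S100a9 were over the filter. Both were higher in value, with a mean of 9.66, 7.92 and 8.20 in Cre plus livers, against 8.13 to 8.20 in Cre minus livers. Cre plus A was the high array, and the part of these cells in other values that were high there was not tested. Of 5 named cholangiocyte markers, Sox9 alone was over the filter, at 0.38. The medians of the macrophage and endothelial lists were -0.35 and -0.24, and the part of these cells in the Dusp6 value was not tested. In whole liver, fewer cells of a type and less RNA per cell cannot be told apart.

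The genes whose profile over the 6 arrays lay closest to that of Dusp6 were looked for among 8550 others, each read from its brightest probe set over the filter. Closeness was the root mean square difference of log2 values over the 6 arrays, after each probe set was centred on its own mean. Arhgef19, a guanine nucleotide exchange factor, was closest at 0.049, with 7.05, 7.17 and 6.56 in Cre plus livers, against 7.79, 7.50 and 7.48 in Cre minus livers. Like Dusp6 it was lowest in Cre plus C and highest in Cre minus A. The genes named next were too, and the choice by likeness favours this. Fam214a followed at 0.083, the ADP-ribosyltransferase Parp16 at 0.094, the nucleoside transporter Slc29a1 at 0.097 and the splicing factor gene U2af1l4 at 0.102. Their log2 fold changes lay between -0.74 (Slc29a1) and -0.53 (U2af1l4), which their choice by likeness fixes. None of the 5 is a listed ERK target or pathway gene.

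Phlda1 encodes a protein with a pleckstrin homology-like domain and is a common marker of ERK output. Its probe set read 9.90, 10.20 and 10.05 in Cre plus livers, against 10.01, 9.83 and 10.22 in Cre minus livers. The groups overlapped throughout, with the highest value in Cre minus C and the lowest in Cre minus B. The means were 10.05 ± 0.15 in Cre plus and 10.02 ± 0.19 in Cre minus (SD, n = 3 each), a log2 fold change of 0.03 ± 0.13 (SE) with limma's adjusted p = 0.944. The 95% interval ran from -0.28 to 0.34, which on the linear scale is 82.3% to 126% of the level in Cre minus livers. The sign of so small a difference was not stable, at -0.046 without Cre plus B and -0.064 without Cre minus B.

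**Figure D3:**
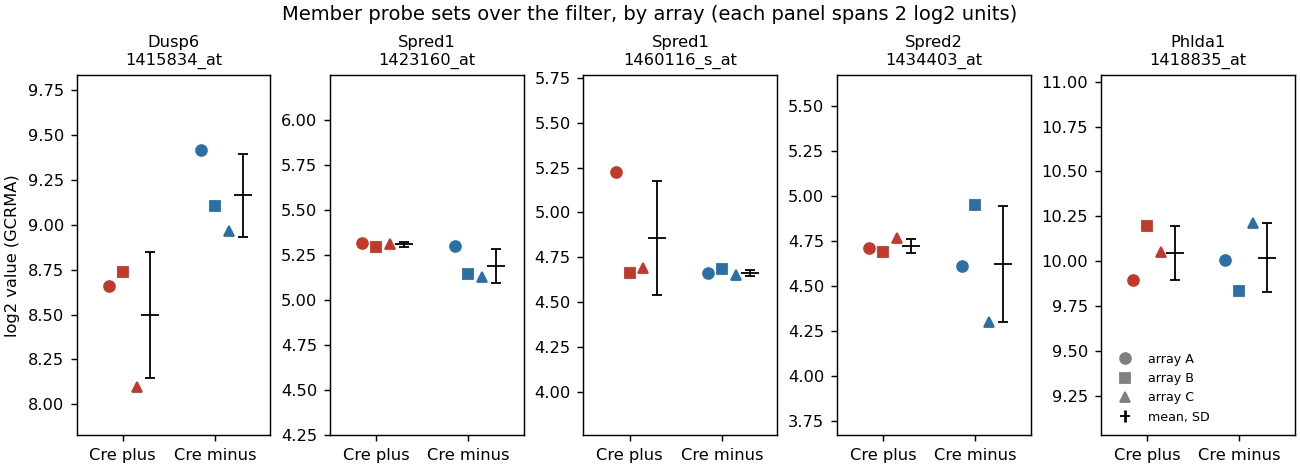
Log2 value (vertical axis) of the 5 probe sets over the filter, with Cre plus left of Cre minus in each panel, a symbol for each array and the mean with its SD (n = 3) beside the points. All panels span the same number of log2 units. The Dusp6 groups do not overlap, while those of Spred1, Spred2 and Phlda1 do.

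Spred1 and Spred2 encode membrane-associated inhibitors of RAS activation with an EVH1 and a Sprouty-related domain. Spred1 (chr2:117121070-117182280) had 8 probe sets and 2 over the filter. The brighter read 5.32, 5.29 and 5.31 in Cre plus livers, against 5.30, 5.14 and 5.13 in Cre minus livers. The Cre plus arrays differed by little among themselves and only Cre minus A reached their level. The log2 fold change was 0.12 ± 0.06 (SE), with a 95% interval of -0.04 to 0.28 and an adjusted p of 0.480 by limma. The second Spred1 probe set, of the _s_at kind, which can bind related transcripts, read 5.23, 4.66 and 4.69 in Cre plus livers, against 4.66, 4.68 and 4.65 in Cre minus livers. Here Cre plus A alone stood out. The value of 0.19 ± 0.16 (SE, limma's adjusted p = 0.633) came to 0.0091 without Cre plus A.

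Spred2 (chr11:19924442-20024026) had 5 probe sets and 1 over the filter. It read 4.71, 4.69 and 4.77 in Cre plus livers, against 4.61, 4.95 and 4.30 in Cre minus livers. The Cre minus arrays lay on both sides of the Cre plus arrays. The log2 fold change was 0.10 ± 0.16 (SE, limma's adjusted p = 0.815), with a 95% interval of -0.30 to 0.50, and it was 0.27 without Cre minus B and -0.057 without Cre minus C. The exact permutation p was 0.2 and 0.3 for the Spred1 probe sets, 0.7 for Spred2 and 0.8 for Phlda1, two-sided.

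Of the 22 probe sets under the filter, 17 had no array over 4 and 5 had a single array over it. Their values ran from 2.16 to 4.70, and on 12 of them all 6 arrays lay within 0.1 of each other. Values this low carry little signal over background, where GCRMA compresses differences, and they do not show that a transcript was absent.

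The 6 Spred1 probe sets under the filter lay between 2.47 and 4.70, and the 4 of Spred2 between 2.42 and 4.07. Among the phosphatases, Dusp4, a nuclear phosphatase of ERK, read 2.71 to 2.82 on all arrays. Dusp5, another nuclear ERK phosphatase, read 2.95 in Cre plus C and 2.45 to 2.47 on the other 5 arrays. Among the Sprouty genes, Spry1 read 3.76 to 3.79 on all arrays and the 2 probe sets of Spry2 lay between 2.16 and 3.10. Spry4 had 4 probe sets, and the brightest read 4.22, 3.76 and 3.77 in Cre plus livers, against 3.76, 3.80 and 3.53 in Cre minus livers. Only Cre plus A was over the filter there. The 3 probe sets of Etv5, an ETS factor of the PEA3 group that ERK induces, lay between 2.16 and 3.34.

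The probe sets with a single array over the filter were not all high in the same array. Cre plus A was the high one for Spry4 (4.22) and for 1 Spred1 probe set (4.70, next highest 3.93). Cre plus C was the high one for another Spred1 probe set (4.12, next highest 3.88) and for a Spred2 probe set (4.07, next highest 3.73), and Cre minus C for 1 more Spred1 probe set (4.10, next highest 3.77). In a fit over all 45037 probe sets with no filter, the 22 had log2 fold changes between -0.21 and 0.27, with 12 of 22 higher, a median of 0.00386 and no adjusted p under 0.750 by limma.

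The rest of the pathway was read from 6 lists of genes, each gene from its brightest probe set over the filter. By limma, 0 listed genes passed over all probe sets, where 0.0117% of the 8554 genes did (1 gene). Before adjustment, 6.59% of all genes were higher and 8.10% lower with a p under 0.05, and the median log2 fold change of all genes was -0.00865. Of 18 other ERK phosphatases and feedback inhibitors, 9 were over the filter, 6 higher and 3 lower in value, with a median of 0.14, which came to 0.067 when Cre plus A was left out and to 0.047 when Cre plus B was. Before adjustment 2 were higher, and 0 lower, with a p under 0.05. These were Dusp16 and Dusp10, which encode phosphatases that act mainly on JNK and p38.

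Dusp16 read 8.92, 8.19 and 8.38 in Cre plus livers, against 7.97, 7.76 and 8.04 in Cre minus livers, a log2 fold change of 0.58 ± 0.20 (SE, limma's adjusted p = 0.331), which was 0.36 without Cre plus A. Dusp10 read 5.41, 4.51 and 5.27 in Cre plus livers, against 4.49, 4.36 and 4.35 in Cre minus livers, at 0.67 ± 0.24 (SE, limma's adjusted p = 0.340). For both genes every Cre plus liver lay above every Cre minus liver, as in 9.21% of all 8554 genes. This is opposite in sign to Dusp6, and the difference between the genes was not tested. Errfi1, an inhibitor of the EGF receptor, had 0.14 ± 0.06 (SE). Dusp1, which acts on several MAP kinases, had 0.34 ± 0.38 (SE) with overlapping groups, and was chosen after its values were seen. Among the lower genes of this list, Rasal2 had -0.60 ± 0.27 (SE). Its Cre plus livers all lay below its Cre minus livers, as in 11.9% of all 8554 genes. The other lower genes were Dusp3 at -0.19 ± 0.13 and Pebp1 at -0.012 ± 0.092 (SE). The 3 Dusp3 probe sets over the filter ran from -0.19 to 0.19. These lower genes were also named after their values were seen. The ERK phosphatases Dusp7 and Dusp9 missed the filter, as did Spry3 and Spred3.

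**Figure D4:**
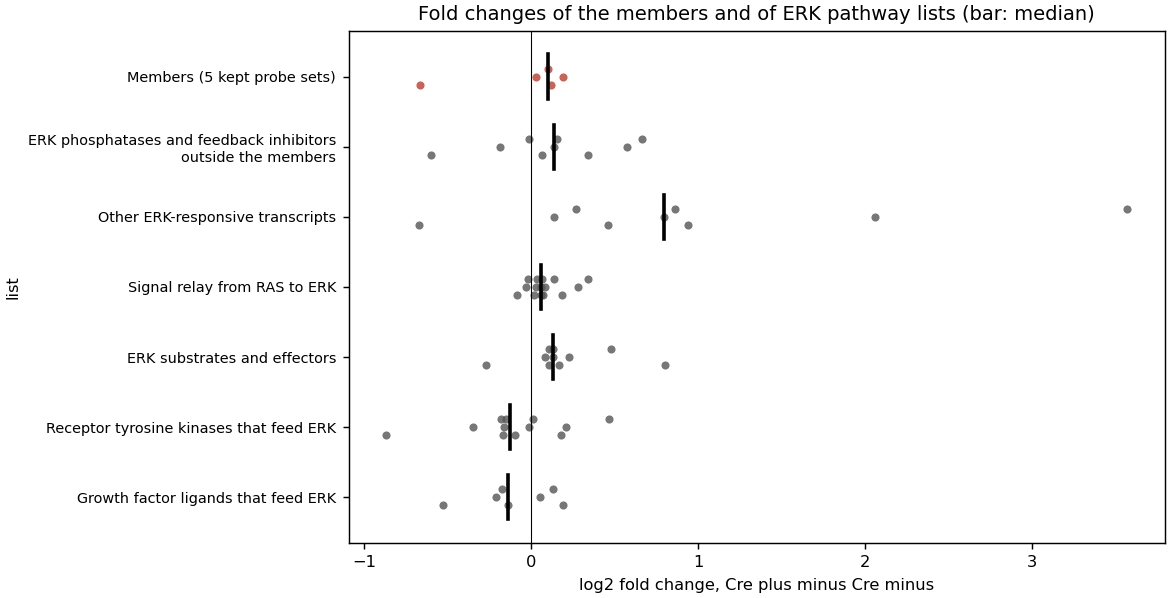
Log2 fold change, Cre plus minus Cre minus (horizontal axis), of each gene over the filter in the 6 pathway lists (grey points) and of the 5 member probe sets (red points), with the list median as a bar. The list of other ERK-responsive transcripts has the highest median, 0.80, while Dusp6 is the lowest of the member points at -0.67.

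Of 21 other named ERK-responsive transcripts 9 were over the filter, 8 higher and 1 lower in value, with a median of 0.80. Before adjustment, 4 of them were higher and 1 was lower with a p under 0.05. The immediate early genes were listed with earlier results of these data known, so their direction is not independent support. Junb, an AP-1 subunit, had 0.80 ± 0.14 (SE, limma's adjusted p = 0.154) and Jun, another subunit, 0.86 ± 0.21 (SE, limma's adjusted p = 0.228). Every Cre plus liver lay above every Cre minus liver for both, as in 9.21% of all genes.

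Among these, Ccnd1 was the lower one. It encodes cyclin D1, through which ERK promotes entry into the cell cycle. Its values were 8.16, 8.58 and 8.29 in Cre plus livers, against 8.96, 8.89 and 9.19 in Cre minus livers, a log2 fold change of -0.67 ± 0.14 (SE, limma's adjusted p = 0.192). Ccnd1 and Dusp6 thus had values of the same sign and close in size, but Ccnd1 was lowest in Cre plus A and Dusp6 in Cre plus C. The remaining genes that are often used beside Dusp6, Phlda1 and the Sprouty genes as an ERK output signature were Epha2, at 0.27 ± 0.16 (SE) with no overlap of the groups, and Etv4 and Epha4, which missed the filter. Epha2 was chosen after its values were seen, and 9.21% of all genes were separated in its direction.

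Some immediate early genes were high in only part of the Cre plus livers. Egr1, a zinc finger factor induced by ERK within minutes, read 8.47, 5.28 and 8.36 in Cre plus livers, against 5.32, 5.33 and 5.28 in Cre minus livers. Ier3, another early ERK target, read 10.59, 6.11 and 9.64 in Cre plus livers, against 5.03, 5.11 and 5.48 in Cre minus livers. Cre plus A and C were high for both genes. Cre plus B lay within the Cre minus range for Egr1 and above it by less than the other Cre plus arrays for Ier3, whereas for Dusp6 Cre plus A and B were alike and C was lower. Jun and Junb did not show this pattern, with 9.05, 9.18 and 9.22 for Jun and 8.55, 8.09 and 8.14 for Junb in Cre plus livers. Egr1 had an adjusted p of 0.386 and Ier3 of 0.304 by limma with all arrays. Without Cre plus B, the low array for both, these were 0.00202 and 0.0318, at log2 fold changes of 3.11 and 4.91. That array was singled out after the values were seen, so those adjusted p-values are not independent support. Without Cre plus A the adjusted p was 0.586 for Egr1 and 0.490 for Ier3 by limma, and 0.569 and 0.468 without Cre plus C. Zfp36, an mRNA decay factor, had 0.94 ± 0.28 (SE) with all arrays. It had 1.26 without Cre plus B, its lowest Cre plus array (adjusted p = 0.0318 by limma). Without Cre plus A it had 0.75 and without Cre plus C 0.80 (adjusted p = 0.479 and 0.435 by limma). Egr1, Ier3 and Zfp36 were chosen after their values were seen. Fos, Fosb and Fosl1 missed the filter.

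**Figure D5:**
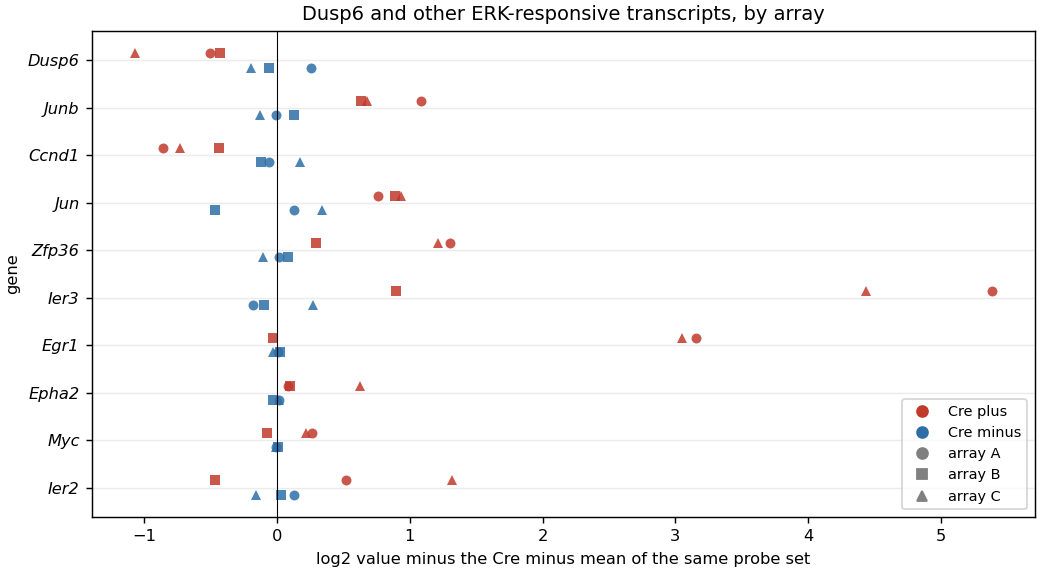
Log2 value minus the Cre minus mean of the same probe set (horizontal axis) for Dusp6 and the 9 other ERK-responsive transcripts over the filter (rows), with Cre plus in red above Cre minus in blue and a symbol for each array. Dusp6 and Ccnd1 lie to the left in all 3 Cre plus arrays, and Ier3 and Egr1 lie far to the right in Cre plus A and C but not in Cre plus B.

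The relay from RAS to ERK differed little. Of 17 named genes 15 were over the filter, 12 higher and 3 lower in value, with a median of 0.059. Without Cre plus A, 8 were higher and 7 lower, with a median of 0.0026. The gene with an unadjusted p under 0.05 was Sos2, an exchange factor that loads RAS, at 0.34 ± 0.12 (SE). Nras had 0.19 ± 0.09 and the kinase gene Braf 0.28 ± 0.14 (SE), and the 4 Braf probe sets over the filter ran from -0.07 to 0.28. Map2k1, which encodes the kinase MEK1, had 0.072 ± 0.053 and Map2k2 -0.087 ± 0.079 (SE), both chosen after their values were seen. The 2 Map2k2 probe sets over the filter differed in sign, at -0.087 and 0.16.

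Of 13 named ERK substrates and effectors, 10 were over the filter, 9 higher and 1 lower in value, with a median of 0.13. The gene with an unadjusted p under 0.05 was Ets2. Ets2, an ETS factor that ERK phosphorylates, read 9.12, 7.96 and 8.98 in Cre plus livers, against 7.93, 7.67 and 8.04 in Cre minus livers, a log2 fold change of 0.80 ± 0.32 (SE, limma's adjusted p = 0.372). Cre plus A and C were high and Cre plus B lay within the Cre minus range, as for Egr1. The kinase genes Rps6ka3 and Mknk1 had 0.48 ± 0.22 and 0.16 ± 0.08 (SE). The 2 Mknk1 probe sets over the filter differed in sign, at -0.13 and 0.16.

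Of 18 genes for receptor tyrosine kinases and a co-receptor, 12 were over the filter, 4 higher and 8 lower in value, with a median of -0.13. Before adjustment 1 was higher and 1 lower with a p under 0.05. The second of these was Klb, which encodes the co-receptor for FGF21 and FGF15, with 6.15, 6.79 and 6.08 in Cre plus livers, against 7.14, 7.16 and 7.33 in Cre minus livers. Every Cre plus liver lay below every Cre minus liver, as in 11.9% of all genes. The log2 fold change was -0.87 ± 0.20 (SE, limma's adjusted p = 0.213). Limma's adjusted p for Klb was 0.0462 without Cre plus B. That array was singled out after the values were seen, so this value is not independent support. It was 0.394 without Cre plus A, 0.308 without Cre plus C, and 0.303 to 0.529 with 1 Cre minus array left out. The higher gene was Pdgfra at 0.47 ± 0.16, and Insr, the insulin receptor gene, had 0.18 ± 0.08 (SE). The list median was -0.0068 without Cre plus C and -0.027 without Cre minus C. Kdr and Pdgfrb in this list are also endothelial and stellate cell markers.

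Of 17 named growth factor ligands, 7 were over the filter, 3 higher and 4 lower in value, and 2 of the lower ones had an unadjusted p under 0.05. Fgf1 read 8.74, 9.15 and 8.63 in Cre plus livers, against 9.44, 9.49 and 9.17 in Cre minus livers, a log2 fold change of -0.53 ± 0.16 (SE, limma's adjusted p = 0.295). Its groups did not overlap, as in 11.9% of all genes in this direction, though Cre plus B lay just under Cre minus C. The 3 Fgf1 probe sets over the filter ran from -0.57 to -0.04. Vegfa had -0.17 ± 0.07 and Igf1 0.19 ± 0.09 (SE). The list median of -0.14 came to 0.088 without Cre plus C and 0.00049 without Cre minus A, so the list had no stable direction.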

How the data were processed

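Total RNA (2 ug per array) from 6 liver samples was hybridized to mouse whole-genome Affymetrix arrays. The deposited values are log2 expression per probe set made by the authors with GCRMA, per the submitters' processing notes as listed here, with no version. The table holds 45101 probe sets, 64 of them controls, which were left out. Symbols came from the platform annotation, checked by Entrez ID against RefSeq genes of GRCm38.p6. Of the probe sets, 34958 named 1 gene, 932 several and 9211 none. Arrays give no read depth, so precision rests on their number.

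Cre plus was compared with Cre minus in limma 3.58.1 (R 4.3.3) with lmFit and eBayes, two-sided, with no block, over all probe sets kept and with Benjamini-Hochberg adjustment over them. The members, the pathway and marker lists and the alternatives were chosen with earlier results of these data known. The text covers every probe set of the members, singly or by range, and names the 3 genes with the smallest p in each pathway list and the 5 genes most like Dusp6. Other pathway genes are named as missing the filter, as markers too, or as chosen later. Cell type markers are named as missing the filter or as the only ones of their list over it. Cps1 and Ass1 were named after their values were seen. The alternatives covered normalization, filter, variance prior, probe set choice, array weights, a replicate block and each array left out in turn.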

Additional observations from a re-analysis of the deposited data

How the results depend on the processing

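No member passed the adjusted threshold under any of the 17 alternatives, and the Dusp6 fold change kept its sign in all 17, between -0.79 and -0.47. The count of all probe sets past the threshold, 2, was 0 with no filter, 55 with a filter at 6, and 0 with the replicate block. With 1 array left out it lay between 0 (without any 1 of the Cre minus arrays) and 23 (without Cre plus B), and it was 1 without Cre plus A. The letters A, B and C were not found to pair the arrays, since the deviations of same-lettered arrays from their group means correlated at -0.09, -0.09 and 0.01, and 0 of 6 arrays lay closest to their own letter. The block left Dusp6 at -0.67 with an adjusted p of 0.342 by limma and Socs3 at -2.01. The median of the member probe sets, 0.10, was 0.017 with no filter, 0.065 with the brightest probe set per gene, with the mean per gene and without _x_at and _s_at probe sets, and -0.32 with the filter at 6, which leaves Dusp6 and Phlda1. With arrays left out it ran from 0.079 to 0.12. Phlda1 was -0.025 with array weights and ran from -0.064 to 0.13 with arrays left out, and Spred2 from -0.057 to 0.27. The brightest Socs3 probe set missed the threshold over all probe sets with limma's adjusted p = 0.10 and passed at -2.01 with the filter at 6. It ran from -2.14 to -1.75 with arrays left out and passed without Cre plus B. Socs3 had no value without _x_at probe sets, and Spred1 and Spred2 had none with the filter at 6. Leaving arrays out of the pathway lists was added after the data were seen. Signal near background limits what can be said of the 22 probe sets under the filter.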
